A study of Saccharomyces cerevisiae with 6 samples.

Results

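The genes described here encode the core of the pheromone response pathway of budding yeast: the G protein subunits GPA1 and STE4, the scaffold STE5, the kinases STE11, STE7 and FUS3, the transcription factor STE12, the outputs FUS1 and FAR1, and the phosphatase MSG5. They were chosen by name, with earlier results of these data known. Each was read by the probe set whose annotation names that gene alone. All 10 were measured, each by 1 probe set, among 5551 genes with a probe set of their own.

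Messenger RNA was measured on 6 arrays of Saccharomyces cerevisiae, 3 of a tra1-2ts strain and 3 of a strain with wild-type TRA1. Cultures in YPD, a rich glucose medium, were moved from 30 to 37 °C, and each strain gave 1 array at each of 60, 90 and 120 min. The tra1-2ts strain (MDC3) carried that temperature-sensitive allele on a centromeric LEU2 plasmid, and the wild-type strain (MDC1) carried TRA1 on the same kind of plasmid. In both strains HIS3 disrupts the chromosomal TRA1 gene, and both are MATa with the alleles ura3-52 and lys2-801, ade2-101 and trp1∆63, and his3∆200 and leu2∆1. Tra1 is a subunit of the SAGA and NuA4 coactivators that transcriptional activators contact. The labels name no pheromone treatment, arrays of cells at 30 °C were not analysed here, and each genotype is represented by 1 strain.

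In a haploid a cell, the pheromone of the opposite mating type binds the receptor Ste2 and releases the Ste4-Ste18 pair from the inhibitory subunit Gpa1. The freed pair recruits the scaffold Ste5, on which Ste11 activates Ste7 and Ste7 activates Fus3. Fus3 relieves Ste12 of its inhibitors Dig1 and Dig2 so that it drives mating genes, and it acts on Far1, which halts the cell cycle in G1 and orients growth. Several of these genes are themselves induced by Ste12, and STE11 and STE7 also serve other MAP kinase branches.

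Signals are given on the log2 scale after RMA, a method that corrects background, equalises the arrays and summarises each probe set, so only changes relative to the bulk of the transcripts are seen. Levels of different probe sets cannot be set against each other, and each difference is tra1-2ts minus wild type. Genes said to have risen or fallen were higher or lower in tra1-2ts than in wild type, which is not a change over time. Medians over all probe sets lay between 6.14 and 6.20 on the 6 arrays. Across probe sets, arrays of one strain correlated with r = 0.992 to 0.996 and arrays of different strains with r = 0.971 to 0.980. The 3 times serve as the replicates of a strain, and the labels do not say whether they came from separate cultures. The p-values therefore reflect how these arrays spread, which may in part be technical and includes change over time. TRA1 mRNA itself read 9.35, 9.38 and 9.38 in tra1-2ts at 60, 90 and 120 min, against 8.10, 8.55 and 8.68 in wild type; both alleles are read by the same probe set, and the labels are not checked by it.

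The question of the first comparison was how the pathway genes differed between the strains. FAR1, an output of the pathway, was 2.37-fold higher in tra1-2ts than in wild type. FUS1, another output, was also higher, but its wild-type signals lay at background, so no fold is given. GPA1, STE11, STE7 and STE12 rose by smaller amounts, 1.37-, 1.29-, 1.26- and 1.25-fold. The MAP kinase gene FUS3 and the phosphatase gene MSG5 fell 1.37-fold each, and the scaffold gene STE5 fell 1.20-fold. STE4 did not pass the test. In bulk RNA, fewer cells that express a gene and less of its RNA per cell cannot be told apart. In limma with Benjamini-Hochberg adjustment over all 5551 genes and a threshold of 0.05, 9 of the 10 genes were called, against a background of 40.6% of all genes. By direction, 6 of 10 rose, against 18.3% of all genes, and 3 of 10 fell, a share near the 22.3% of all genes that fell. The median difference was 0.33 over the 10 genes and 0.00 over all genes, and the median absolute difference was 0.41 against 0.25. Because the 10 genes were chosen with earlier results of these data known, these shares and medians only describe them.

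**Figure D1:**
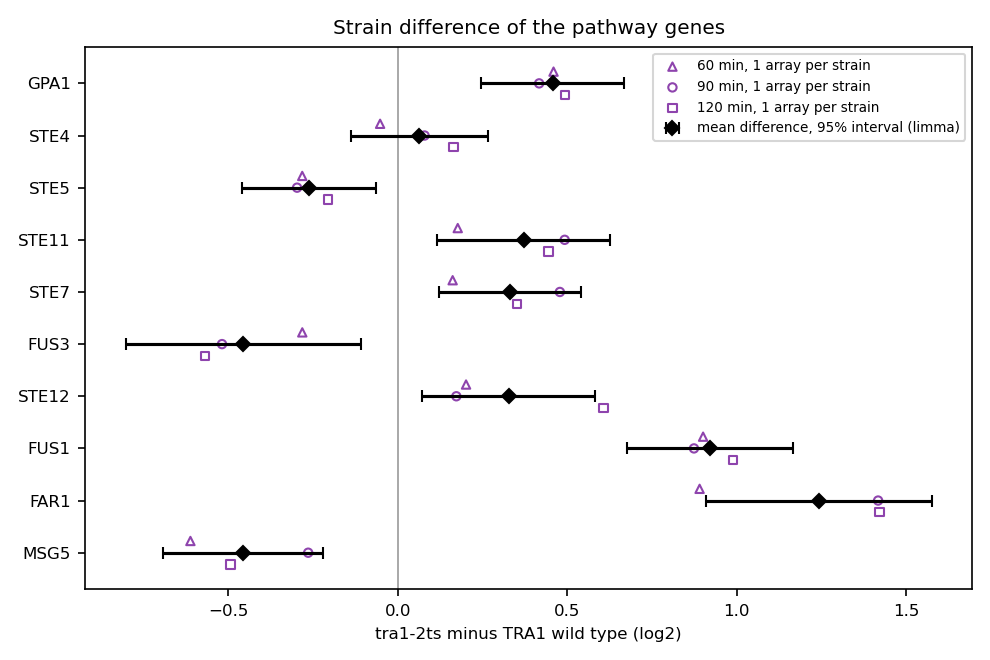
Strain difference of the 10 pathway genes, tra1-2ts minus TRA1 wild type, on the log2 scale. Black diamonds with bars give the mean difference and its 95% interval from limma over 3 arrays per strain, and open symbols give the difference at 60, 90 and 120 min, from 1 array per strain each. FAR1 and FUS1 lie farthest to the right, FUS3, MSG5 and STE5 lie left of 0, and the interval of STE4 spans 0.

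The arrays of the strains did not overlap for any of the 9 called genes, with all 3 tra1-2ts arrays on the same side of all 3 wild-type arrays. Such separation is common here: it holds for 53.8% of all genes, 26.1% with tra1-2ts higher (6 of the 10 pathway genes) and 27.7% with it lower (3 of 10). The sign of the difference was the same at 60, 90 and 120 min for 9 of 10, against 69.1% of all genes. A change of at least 2-fold together with the call was seen for 1 of 10, FAR1, in the upward direction, against 2.43% of all genes, and for 0 of 10 downward, against 2.92%.

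Of the G protein subunit genes among the 10, GPA1 passed the test and STE4 did not. GPA1 (YHR005C), the alpha subunit that holds the pathway off, read 7.17, 7.06 and 7.02 in tra1-2ts at 60, 90 and 120 min, against 6.71, 6.64 and 6.53 in wild type. Every tra1-2ts array lay above every wild-type array, by 0.46, 0.42 and 0.49 at the 3 times. The strain difference was 0.46 with a standard error of 0.09 (limma adjusted p = 0.00457).

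STE4 (YOR212W), the beta subunit that carries the signal, read 7.86, 7.95 and 7.90 in tra1-2ts, against 7.92, 7.87 and 7.74 in wild type. The strains overlapped, with tra1-2ts 0.05 lower at 60 min and 0.16 higher at 120 min. The difference was 0.06 with a 95% interval from -0.14 to 0.27 (limma adjusted p = 0.593), which does not show that the strains are alike. STE18, which encodes the gamma partner of Ste4, rose, with 6.73, 6.54 and 6.53 in tra1-2ts against 5.96, 5.99 and 5.98 in wild type, 1.54-fold (limma adjusted p = 0.00101). Taken within each array, the GPA1 signal relative to that of STE4 was 0.39 higher in tra1-2ts, and the strains did not overlap. An exact two-sided permutation test over the arrays gave p = 0.1, the smallest that 3 against 3 arrays allow (adjusted p = 0.133 over 4 such pairs, which were chosen after the values were seen).

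STE5 (YDR103W) encodes the scaffold that holds the 3 kinases together. It read 5.57, 5.64 and 5.72 in tra1-2ts, against 5.85, 5.94 and 5.93 in wild type. All tra1-2ts arrays were lower, by 0.21 to 0.30, and the strain difference was -0.26 with a standard error of 0.09 (limma adjusted p = 0.0404). The call rests on the full set of arrays: it ended when any single array other than wild-type 60 min was left out, with adjusted p up to 0.122, and with arrays centred on their medians (0.0822).

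The 2 upper kinases of the cascade rose. STE11 (YLR362W), the MAP kinase kinase kinase, read 6.74, 6.73 and 6.65 in tra1-2ts, against 6.56, 6.24 and 6.21 in wild type. The tra1-2ts arrays were nearly level and the wild-type arrays lay farthest below them at 90 and 120 min, with differences of 0.18, 0.49 and 0.44 in order of time. The strain difference was 0.37 with a standard error of 0.11 (limma adjusted p = 0.0278). STE7 (YDL159W), the kinase that phosphorylates Fus3, read 5.89, 6.07 and 5.95 in tra1-2ts, against 5.73, 5.59 and 5.59 in wild type. All tra1-2ts arrays were higher, and the difference was 0.33 with a standard error of 0.09 (limma adjusted p = 0.0204). The call of STE11 ended without any single array other than wild-type 60 min, with adjusted p up to 0.0916. That of STE7 ended without tra1-2ts 90 min (0.0968), wild-type 90 min (0.0629) or wild-type 120 min (0.0531).

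FUS3 (YBL016W), the MAP kinase itself, was lower in tra1-2ts, opposite to the kinases above it. It read 7.06, 7.03 and 6.58 in tra1-2ts, against 7.34, 7.55 and 7.15 in wild type. The highest tra1-2ts array lay just under the lowest wild-type array, and both strains read lowest at 120 min. The strain difference was -0.46 with a standard error of 0.15 (limma adjusted p = 0.0411). Without tra1-2ts 120 min the difference was -0.30 (adjusted p = 0.117), and the call also ended without tra1-2ts 90 min (0.0598), wild-type 60 min (0.0763) or wild-type 90 min (0.128).

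KSS1, a MAP kinase related to FUS3 that serves filamentous growth and can act in mating, rose 1.31-fold, with 5.15, 5.21 and 5.05 in tra1-2ts against 4.78, 4.77 and 4.70 in wild type (limma adjusted p = 0.00771). Within each array, FUS3 relative to KSS1 differed by -0.85 on the log2 scale between tra1-2ts and wild type, and FUS3 relative to STE7 differed by -0.79. FUS3 was lower, and KSS1 and STE7 were higher, on every tra1-2ts array than on every wild-type array. Neither pair could therefore overlap between strains. The exact permutation p of 0.1 for each, again the smallest possible (adjusted p = 0.133), was fixed by this and adds no support.

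**Figure D2:**
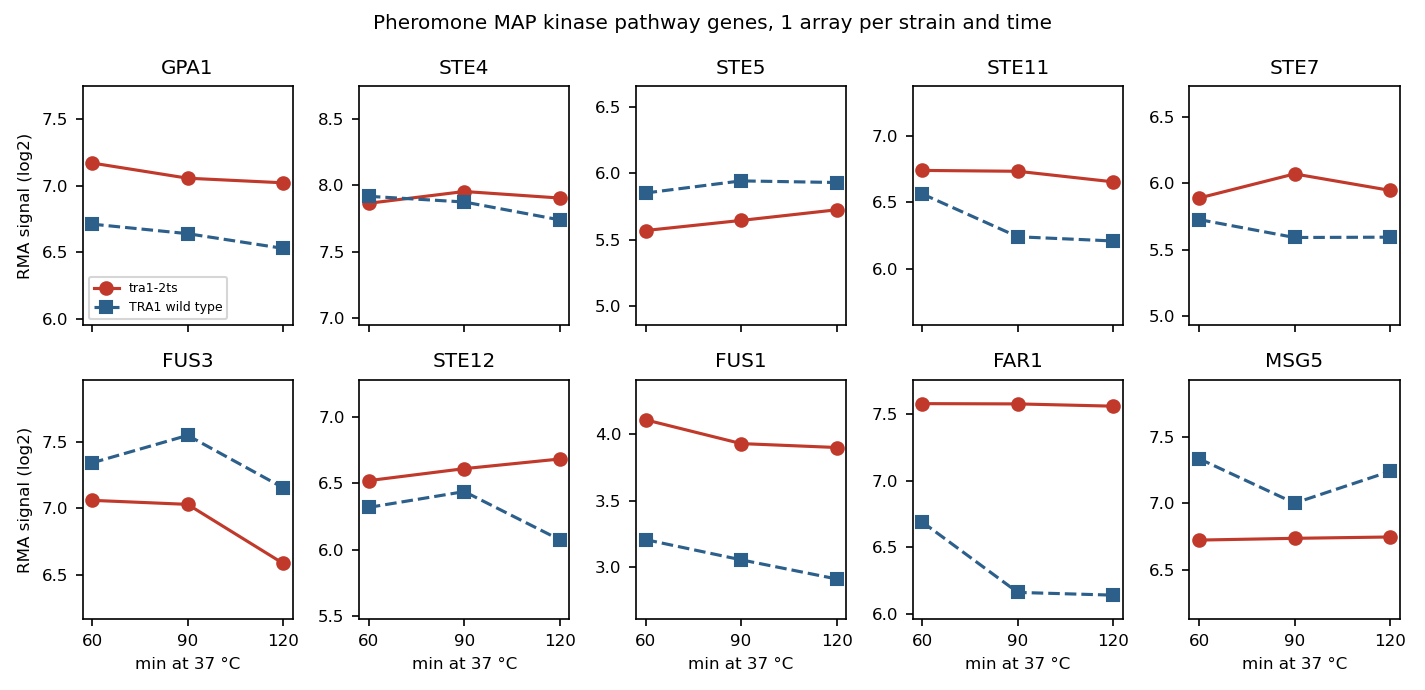
RMA signal on the log2 scale (vertical axes, each spanning the same range of log2 units) against minutes at 37 °C for the 10 pathway genes. Red circles and solid lines are tra1-2ts, blue squares and dashed lines are TRA1 wild type, and each point is 1 array. FAR1 stays between 7.56 and 7.58 in tra1-2ts and lies between 6.14 and 6.69 in wild type, while the STE4 lines cross.

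STE12 (YHR084W) encodes the transcription factor at the end of the cascade. It read 6.52, 6.61 and 6.68 in tra1-2ts, against 6.32, 6.44 and 6.07 in wild type. All tra1-2ts arrays lay above all wild-type arrays, and the gap was widest at 120 min, at 0.61. The strain difference was 0.33 with a standard error of 0.11 (limma adjusted p = 0.0452). The call ended without any single array other than wild-type 90 min, with adjusted p up to 0.127, and without both 120 min arrays the difference was 0.19 (adjusted p = 0.264).

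FAR1 (YJL157C), which encodes an inhibitor of the G1 cyclin kinase that is also an adaptor for polarised growth, differed most among the 10. It read 7.58, 7.58 and 7.56 in tra1-2ts, against 6.69, 6.16 and 6.14 in wild type. The tra1-2ts arrays were almost identical (SD 0.01), and the wild-type arrays were lower throughout and lower at 90 and 120 min than at 60 min (SD 0.31). The strain difference was 1.24 with a standard error of 0.15 (limma adjusted p = 0.000396), the 131st largest of the 5551 genes in absolute size. By time the difference was 0.89, 1.42 and 1.42, and leaving out single arrays gave 1.15 to 1.42.

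FUS1 (YCL027W), a membrane protein gene needed for cell fusion and a standard reporter of the pathway, read 4.11, 3.93 and 3.90 in tra1-2ts, against 3.21, 3.06 and 2.91 in wild type. The tra1-2ts arrays were higher at every time, by 0.90, 0.87 and 0.99, and the strain difference was 0.92 with a standard error of 0.11 (limma adjusted p = 0.000391). All of these signals are low. The brightest of 4 mouse control probe sets, which have no target in yeast, read 3.73, 3.67 and 4.16 on the tra1-2ts arrays, against 4.12, 3.74 and 4.22 on the wild-type arrays. FUS1 was under that level on all 3 wild-type arrays and on tra1-2ts 120 min, so the size of the difference depends on the background and is not given as a fold. No array of the other 9 genes was under it.

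MSG5 (YNL053W) encodes a dual-specificity phosphatase that removes the activating phosphates of Fus3 and also acts on Slt2 of the cell wall integrity pathway. It read 6.72, 6.74 and 6.75 in tra1-2ts, against 7.33, 7.00 and 7.24 in wild type. The tra1-2ts arrays were nearly equal (SD 0.01) and all lay under the wild-type arrays (SD 0.17). The strain difference was -0.46 with a standard error of 0.10 (limma adjusted p = 0.00826). MSG5 relative to FUS3 within each array differed by -0.000204 between the strains, and the strains overlapped (exact permutation p = 1).

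FAR1, FUS1 and MSG5 were called in every alternative that could be run for them, and GPA1 in all but 1, the fit without both 90 min arrays (adjusted p = 0.0614). STE5, STE11, STE7, FUS3 and STE12, whose adjusted p lay between 0.0204 and 0.0452, each lost the call in 5 to 9 of 16 alternatives while keeping the direction.

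**Figure D3:**
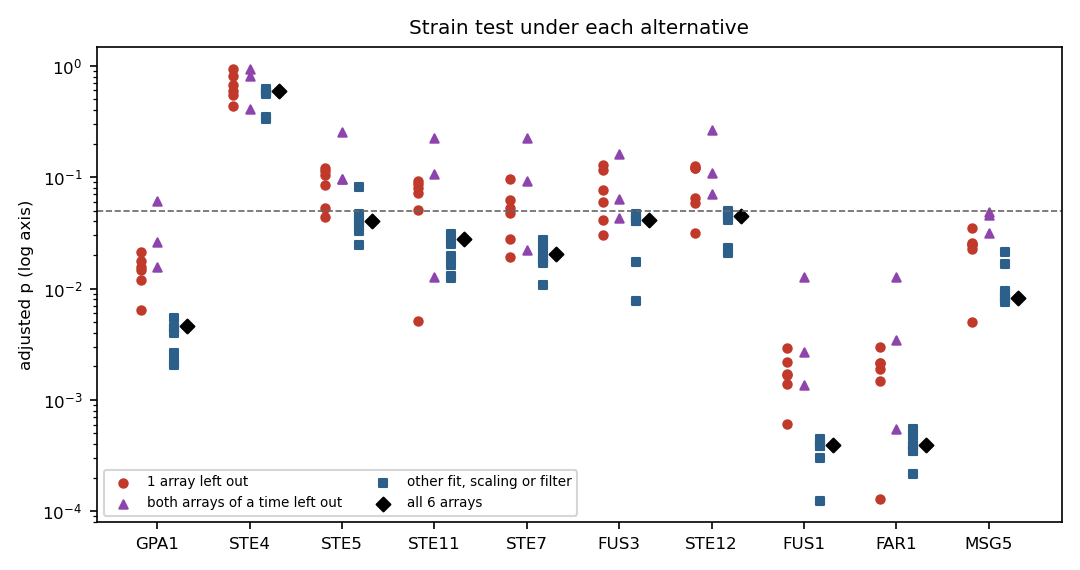
Adjusted p of the strain test (log axis) for the 10 pathway genes with all 6 arrays (black diamonds), with 1 array left out (red circles), with both arrays of a time left out (purple triangles) and with another fit, scaling or filter (blue squares). The dashed line marks 0.05: all points of FAR1, FUS1 and MSG5 lie under it, those of STE5, STE11, STE7, FUS3 and STE12 lie on both sides, and those of STE4 lie above.

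The second comparison followed the genes over 60, 90 and 120 min. With a slope shared by both strains, 0 of the 10 genes passed limma at an adjusted p under 0.05, against 0.324% of all genes, which is 18 of 5551. At an unadjusted p under 0.05, 1 of 10 passed, against 16.2% of all genes. This was FUS1, which changed by -0.25 per 60 min with a standard error of 0.10 (limma adjusted p = 0.255). FUS3 changed by -0.33 ± 0.15 (SE), FAR1 by -0.28 ± 0.15, STE11 by -0.22 ± 0.11 and GPA1 by -0.17 ± 0.09 per 60 min, none of them past the test. The slopes of STE4, STE7, STE12 and MSG5 lay between -0.07 and -0.04, and that of STE5 was 0.12.

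Whether the strains moved apart over time was tested by the difference of their slopes, with 2 residual degrees of freedom. Of the 10 genes 0 passed limma at an adjusted p under 0.05, as did 0 of all 5551 genes (0%). At an unadjusted p under 0.05, 0 of 10 passed, against 7.06% of all genes. The largest slope difference was that of FAR1, 0.53 per 60 min with a standard error of 0.25 (limma unadjusted p = 0.0715, adjusted p = 0.729). Its slope was -0.02 ± 0.17 (SE) per 60 min in tra1-2ts and -0.55 ± 0.17 in wild type. STE12 followed, with a slope of 0.16 ± 0.17 in tra1-2ts and -0.24 ± 0.17 in wild type, so the slopes differed by 0.41 with standard error 0.24 (limma adjusted p = 0.772). At single times, which have 1 array per strain and no test, tra1-2ts was higher for 6, 7 and 7 of the 10 genes at 60, 90 and 120 min, against 50.1%, 50.3% and 48.8% of all genes. The median difference was 0.17, 0.29 and 0.40 over the 10 genes, and 0.00, 0.00 and -0.01 over all genes.

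The other genes of the pathway, taken from lists by role, were read beside the 10. These lists, too, were chosen with earlier results of these data known, so their shares are a description. Of 16 other signalling genes 7 rose, 0 fell and 9 did not pass (43.8% called, median difference 0.37). The share called is near the 40.6% of all genes, of which 18.3% rose and 22.3% fell. BAR1, the protease that degrades alpha-factor, rose 3.21-fold, and CDC24, the exchange factor of Cdc42 that Far1 binds, 1.51-fold. SST2, which returns Gpa1 to its inhibitory form and is induced by the pathway, rose 1.88-fold. The receptor gene STE2 and AKR1 were also among the 7, with STE18 and KSS1. The kinase gene STE20 (difference -0.04), the Ste12 inhibitor genes DIG1 (-0.18) and DIG2 (-0.14), the Ste11 adaptor gene STE50 (0.37) and the phosphatase genes PTP2 (0.37) and PTP3 (-0.06) did not pass. PTP3 was under the brightest mouse control on 4 arrays.

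Of 17 pheromone-induced genes outside the 10, 9 rose, 0 fell and 8 did not pass (52.9% called, median 0.35), against the same shares of all genes. The count includes FIG1, whose wild-type arrays all lay under the brightest mouse control. It leaves out the 10 pathway genes, several of which are themselves induced by Ste12, and 3 of the 10 fell. PRM3, needed for nuclear fusion, rose 2.45-fold, CHS1, a chitin synthase gene, 2.40-fold, AGA1, the anchor of a-agglutinin, 2.04-fold, and ASG7 1.46-fold. The wild-type signals of PRM3 (4.39, 4.22 and 4.34) lay close above the brightest mouse control (4.12, 3.74 and 4.22). Its fold may therefore depend on the background. The cell fusion genes FUS2 and PRM1 did not pass, with differences of 0.15 and 0.08, and FUS2 was under the brightest mouse control on 4 arrays. PRM2 and PRM6, also among the 8 that did not pass, were under it on all 6 arrays. CHS1 did not pass the time test and read 8.76, 8.44 and 8.15 in tra1-2ts against 7.78, 7.13 and 6.65 in wild type (limma adjusted p = 0.0554 for the shared slope). All 7 a-specific genes rose, against 18.3% of all genes, with a median of 1.35, MFA1 3.14-fold, MFA2 2.65-fold and AGA2 2.54-fold among them; STE2, BAR1 and ASG7 belong to this list and to one of the 2 above. Of 4 alpha-specific genes, which a MATa cell is not expected to express, 2 rose, against 18.3% of all genes, SAG1 1.41-fold and MF(ALPHA)1 1.36-fold, and STE3 and MF(ALPHA)2 did not pass.

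The summed linear signal of the 4 alpha-specific genes was 175 to 203 on the tra1-2ts arrays, against 124 to 145 on the wild-type arrays. Each sum is compared only between strains, and that of the 7 a-specific genes was 9759 to 10283 in tra1-2ts, against 3530 to 4085 in wild type. STE3, the a-factor receptor gene of alpha cells, was under the brightest mouse control on 5 of 6 arrays, and MF(ALPHA)2 on 3. By contrast, SAG1 read 6.58 to 6.88 in tra1-2ts and 6.12 to 6.29 in wild type, above that control on every array. The part of such signals in the results was not tested.

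**Figure D4:**
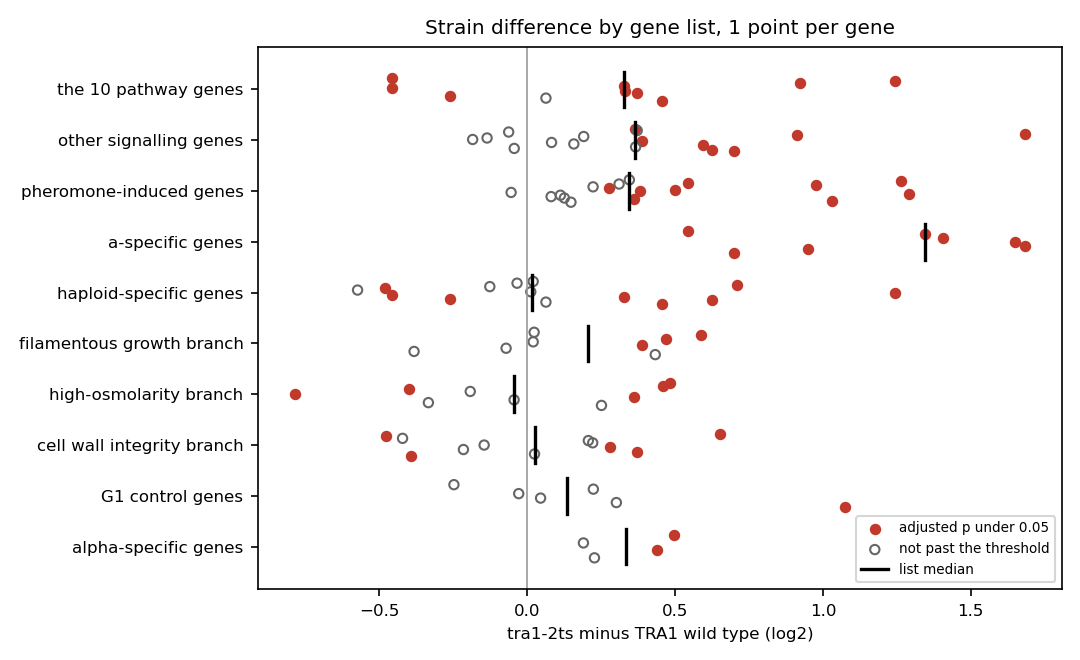
Strain difference (log2, tra1-2ts minus TRA1 wild type) of every gene in the 10 lists, 1 point per gene; filled red points passed the test at an adjusted p under 0.05 and open grey points did not, and black bars mark list medians. The other signalling, pheromone-induced, a-specific, alpha-specific and G1 control genes and the filamentous growth branch have red points only right of 0. The 10 pathway genes, the haploid-specific genes and the high-osmolarity and cell wall integrity branches have them on both sides.

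Haploid-specific genes, which the a1-alpha2 repressor of diploids turns off, were called in both directions. Of 14, which include 6 of the 10 pathway genes, 5 rose and 3 passed with tra1-2ts lower, against 18.3% and 22.3% of all genes, with a median of 0.02. AXL1, a protease that matures a-factor, rose 1.63-fold. NEJ1, a DNA end-joining gene, is one of the 3, but all 6 of its arrays lay under the brightest mouse control, so no fold is given.

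MAP kinase branches that share components or regulators with the pathway were set beside it. In the filamentous growth branch 3 of 8 rose and 0 fell (37.5% called), FLO11, a cell surface flocculin gene, 1.50-fold and FLO8 1.38-fold, with KSS1, while the transcription factor gene TEC1 differed by 0.02. In the high-osmolarity branch 3 of 9 rose and 2 fell (median -0.04): SSK22, a kinase parallel to Ste11, fell 1.72-fold and the MAP kinase gene HOG1 1.32-fold, and HOT1 and SSK2 rose 1.40- and 1.29-fold. In the cell wall integrity branch 3 of 11 rose and 2 fell (median 0.03). SDP1, which encodes a phosphatase related to Msg5, rose 1.57-fold and ROM2 1.29-fold, the sensor gene SLG1 (WSC1) fell 1.31-fold and the transcription factor gene RLM1 1.39-fold, and the MAP kinase gene SLT2 differed by -0.42 without passing (limma adjusted p = 0.149). These shares, 37.5%, 55.6% and 45.5% called, stand beside 40.6% of all genes.

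Far1 acts on the G1 cyclins, so 6 G1 control genes were read beside it. CLN1 rose 2.11-fold, with 5.38, 5.50 and 5.73 in tra1-2ts against 4.20, 4.22 and 4.95 in wild type (limma adjusted p = 0.00307). Its wild-type signal at 60 min, 4.20, lay just above the brightest mouse control of that array, 4.12. The other 5 did not pass (16.7% called, against 40.6% of all genes), among them CLN2 with a difference of 0.30, CLN3 with 0.05 and the inhibitor gene SIC1 with -0.03. SWI4, also among the 5, was under the brightest mouse control on all 6 arrays. The distribution of cells over the cell cycle was not measured, and its part in the FAR1 difference was not tested.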

How the data were processed

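Total RNA from the 6 samples was labelled with biotin by a 3' IVT kit, per the labels' protocols, and hybridized to 1 array each. The deposited values are log2 signals, 1 per probe set and array, made by the authors with RMA in the R package oligo, per the submitters' processing notes; no version is given there. Of 6776 probe sets, 5668 name 1 gene in the platform annotation, 183 several and 925 none, and all 5668 matched the RefSeq gene table of assembly R64 by gene ID. Where a gene had more than 1 (91 genes), the brightest was used. Coordinates are not given.

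From these values, limma 3.58.1 in R 4.3.3 fitted genotype over all 6 arrays (4 residual degrees of freedom), then genotype with a linear slope over minutes (3), then a slope per strain (2). Tests were two-sided with empirical Bayes moderation and Benjamini-Hochberg adjustment over all 5551 genes, at a threshold of 0.05. Standard errors and 95% intervals are limma's, and SDs are over 3 arrays. The scripts were tested on simulated data. The number of arrays limits the precision. Listed genes were named where they were among the 4 smallest strain p of their list past the threshold. STE20, DIG1, DIG2, STE50, PTP2, PTP3, STE2, AKR1, FIG1, FUS2 and PRM1 were named after their values were seen. So were PRM2, PRM6, STE3, NEJ1, TEC1, SLT2, CLN2, CLN3, SIC1, SWI4 and MF(ALPHA)2. The members and lists were chosen with earlier results of these data known. Alternatives were other scalings, a low filter, other moderation, all probe sets, the time point as a block or covariate, and arrays left out.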

Additional observations from a re-analysis of the deposited data

Results flagged for a closer look

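STE4 was the only one of the 10 pathway genes whose strain difference changed sign between times, at -0.05 at 60 min, 0.08 at 90 min and 0.16 at 120 min. Each value rests on 1 array per strain, so the differences at single times were not tested; the difference of slopes over the 3 times was 0.22 per 60 min with a standard error of 0.19 (limma adjusted p = 0.821). Groups of 3 arrays are too small for a test of single outlying arrays.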

How the results depend on the processing

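In 159 recomputed strain differences of the 10 genes under 16 alternatives, 0 changed direction and 36 were no longer past the threshold, spread over 6 genes. The count of genes that rose, 6 with all arrays, was 2 without both 90 min arrays and 3 without both 120 min arrays, and 3 to 5 with single arrays left out. The count that fell, 3 with all arrays, was 1 without both 60 min arrays, 1 without both 90 min arrays, and 1 to 2 with single arrays left out. Fewer arrays leave fewer residual degrees of freedom, and over all genes 1004 in place of 2251 passed without both 90 min arrays (383 higher, 621 lower). That is 18.1% of all genes, against 40.6% with all arrays. The all-gene count was 2041 (36.8%) without both 60 min arrays and 1726 (31.1%) without both 120 min arrays. With single arrays left out it was 1561 to 2214 (28.1% to 39.9%). Single arrays that moved a count by over 1.5 times were tra1-2ts 90 min (3 rose, 1 fell), tra1-2ts 120 min (1 fell), wild-type 90 min (1 fell) and wild-type 120 min (3 rose). With the low filter (mean of at least 5.05) FUS1 was not tested, and 5 of 9 rose and 3 fell. Of the 4163 genes which that filter kept, 867 rose and 1088 fell (47.0% called).

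Arrays with the same number in their titles share a time point. Deviations from the strain means correlated across genes with r = 0.310, 0.0656 and 0.330 between the strains at 60, 90 and 120 min. Of 6 arrays, 6 correlated best with the same time of the other strain. The deviations of a strain come from the mean of its own 3 arrays, so these matches depend on one another and are not 6 separate results. With the time point as a replicate block, 6 of the 10 genes rose and 3 fell, the same counts as without it, and 2520 genes passed in all.

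Counts of genes past the time and slope tests were 0 in every alternative. Slopes that did not pass and changed sign were those of STE4 (0.0394 in the tra1-2ts slope alone; -0.16 to 0.0144 with single arrays left out), STE7 (0.0575; -0.16 to 0.0470), STE12 (0.16; -0.17 to 0.18) and MSG5 (0.0233; -0.12 to 0.11), and the cause was not tested.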
